A study of Mus musculus with 6 samples.

Results

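The retinoblastoma and E2F family was read here as 9 mouse genes: the pocket protein genes Rb1, Rbl1 and Rbl2, and the E2F transcription factor genes E2f1, E2f2, E2f3, E2f4, E2f5 and E2f6. Every spot outside the controls whose gene name on the array was one of these symbols was taken, which gave 18 probes of the 41174 distinct probes on the array. Of these, 15 passed the filter on dim probes, against 27854 of all probes, and each of the 9 genes had at least 1 probe among the 15.

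The study measured RNA of whole mouse embryos at embryonic day 8.5 on 1-colour Agilent arrays, with 1 array for each of 6 samples. Brg1d/d embryos were conditional knockouts of Brg1 (gene symbol Smarca4), an ATPase of the SWI/SNF chromatin remodelling complexes, and Brg1fl/fl embryos carried the floxed alleles and served as wild-type control. Both genotypes were sampled 3 times, as biological replicates per the labels, and in both genotypes tamoxifen had been injected into the pregnant dam. Neither the Cre driver nor the number of embryos per sample is stated in the labels or series text used here.

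Pocket proteins bind E2F factors and hold the promoters of cell cycle genes silent until cyclin-dependent kinases phosphorylate them and the E2F factors are released. E2F1, E2F2 and E2F3 are the activators of genes for DNA synthesis, whereas E2F4 and E2F5 act mainly with pocket proteins as repressors in resting cells. E2F6 does not bind pocket proteins and represses germ line genes together with Polycomb proteins, and BRG1 itself is known to bind the retinoblastoma protein.

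In Brg1d/d embryos 1 probe of the family passed the test, that of E2f2, whose signal was 1.53-fold lower. The 2 probes of E2f1 gave higher values in all Brg1d/d arrays than in any Brg1fl/fl array, by 0.58 and 0.47 on the log2 scale, but missed the threshold. Probes of E2f3 differed in sign among themselves, and E2f4 differed most in estimate and also most between the Brg1d/d arrays. The pocket protein genes differed by -0.43 to -0.08 on the log2 scale, and none passed.

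The probes that these statements rest on are shown so that each value can be tied to the stretch of RNA it was read from. Each probe is a designed 60-base oligonucleotide, given 5′ to 3′ on the strand of the gene. Positions follow the mm7 annotation deposited with the array, and no exon annotation of that build was used here. For probes that lie in 1 uninterrupted stretch of the genome, the first 30 bases are given.
E2f2, chr4:135573084-135573143, plus strand: aaccttttgacatatgtgacctcgtcgtct
E2f1 brighter probe, chr2:154301126-154301185, minus strand: cgggaatgaaggtgaacacatctgtatgtg
E2f1 dimmer probe, chr2:154300864-154300923, minus strand: ctttaatggagcgtttatttatttatcgag
E2f3 brightest probe, chr13:29272158-29272217, minus strand: cctgttccagctgtgatcttaccacttcaa
E2f4, chr8:103903895-103903954, plus strand: aagatttacagtaacgaatgaattcctata
Rb1, chr14:67877318-67877377, minus strand: attttcagagatcctgcttcgagatttctt

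The other kept probes of E2f3 are shown whole because each spans far more genomic sequence than its own 60 bases, 1087 and 3387 bases, so that each crosses at least 1 exon boundary. Both lie upstream of the brightest probe in the direction of transcription, and these 3 probes did not share a sign.
E2f3 second probe, chr13:29275663-29276749, minus strand: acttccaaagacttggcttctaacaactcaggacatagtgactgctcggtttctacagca
E2f3 dimmest kept probe, chr13:29279047-29282433, minus strand: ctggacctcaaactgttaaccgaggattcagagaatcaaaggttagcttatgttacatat

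All levels below are log2 of the processed signal minus the array's own 75th percentile, so that 0 is the signal at that percentile. Differences are Brg1d/d minus Brg1fl/fl on that scale, with their standard error (SE) and 3 arrays per genotype. A probe's level is not compared with that of another probe, since probes differ in how well they bind. The test was limma's moderated test with Benjamini-Hochberg adjustment over all 27854 kept probes, and a probe passed at an adjusted p under 0.05. In whole embryos, fewer cells of a type and less RNA per cell cannot be told apart.

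The targeted gene was read first. The brightest of 3 Smarca4 probes was at 1.49, 2.65 and 2.0 in Brg1d/d, against 5.28, 4.45 and 4.50 in Brg1fl/fl, a difference of -2.69 ± 0.36 (SE, n = 3 each, limma adjusted p 0.0114). The other 2 differed by -2.25 and -2.08, and the genotypes did not overlap on any of the 3. Without Brg1d/d array 3 the brightest probe's adjusted p was 0.0554.

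The arrays were scanned on 3 days and came from 4 slides. Brg1d/d array 2 and the 3 Brg1fl/fl arrays shared a day, whereas Brg1d/d arrays 1 and 3 were scanned on separate days. The brightest spike-in control, RNA added at labelling, read 12934 and 6905 units on Brg1d/d arrays 1 and 3, against 231544 on Brg1d/d array 2 and 208550 to 241121 on the Brg1fl/fl arrays. Beside each difference stands the same-day difference, Brg1d/d array 2 minus the mean of the Brg1fl/fl arrays, which has no test. The Brg1fl/fl arrays shared 1 slide and each Brg1d/d array had its own, so slide and genotype cannot be told apart. With scan day as a block, Brg1d/d arrays 1 and 3 are each absorbed by a day of their own. The genotype estimate is then the same-day difference, from 1 Brg1d/d array against the Brg1fl/fl arrays. The block is therefore not a second reading beside the same-day difference, and a loss of calls with it cannot be told apart from the loss of arrays. Spots well above background made up 68.7% to 73.5% in Brg1d/d and 68.5% to 69.3% in Brg1fl/fl.

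Over the whole array 9.37% of kept probes passed, 5.02% higher and 4.35% lower in Brg1d/d. In the family 1 of 15 kept probes passed (6.67%), and it was lower. An unadjusted limma p under 0.05 was reached by 6 of the 15, against 31.7% of all kept probes. The genotypes did not overlap on 7 of the 15 (46.7%), 2 higher and 5 lower in Brg1d/d, against 39.3% of all kept probes, 21.9% higher and 17.4% lower. The estimate was above 0 for 5 probes and below 0 for 10. The median size of the difference was 0.40 for the family and 0.40 for all kept probes, and the median signed difference was -0.19 against 0.07. By these counts the family differed between the genotypes about as often and by about as much as the array as a whole.

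**Figure D1:**
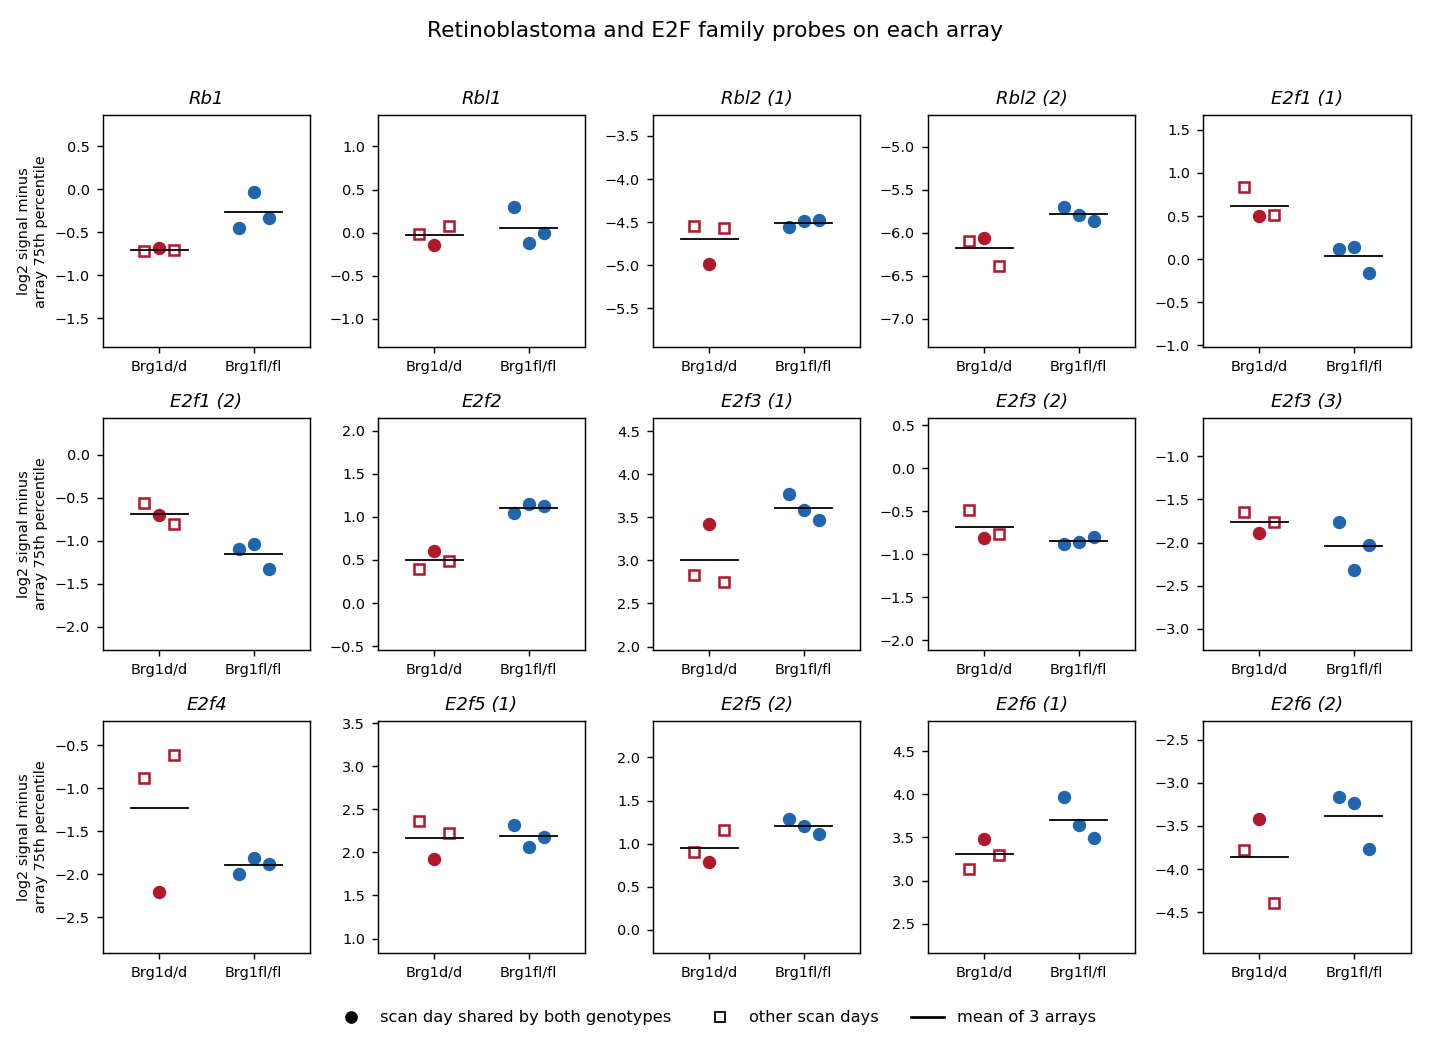
Level of each of the 15 kept probes on each array, on the log2 scale relative to that array's 75th percentile, with Brg1d/d in red on the left and Brg1fl/fl in blue on the right of each panel; filled circles are the arrays scanned on the day both genotypes shared, open squares are arrays of other days, and bars are means of 3 arrays. E2f2 and both E2f1 probes separate the genotypes on every array, whereas the E2f4 value of the Brg1d/d array scanned with the Brg1fl/fl arrays, -2.21, lies below all 3 Brg1fl/fl values.

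The pocket protein genes come first. Rb1 encodes the retinoblastoma tumour suppressor. Its kept probe was at -0.72, -0.68 and -0.71 in Brg1d/d, against -0.45, -0.03 and -0.33 in Brg1fl/fl. All Brg1d/d values lay within 0.04 of one another and below every Brg1fl/fl value. The difference was -0.43 ± 0.17 (SE, limma adjusted p 0.136, 95% interval -0.83 to -0.03), and the same-day difference was -0.41. This probe was printed at 10 spots on each array, and the standard deviation of its spots was 0.05 to 0.08 on the log2 scale, below the standard deviation of 0.22 between the Brg1fl/fl arrays. The second Rb1 probe was well above background on only 2 arrays of each genotype and was not tested.

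Rbl1 encodes a pocket protein made mostly in cycling cells. Its probe was at -0.01, -0.14 and 0.08 in Brg1d/d, against 0.30, -0.12 and -0.01 in Brg1fl/fl. The genotypes overlapped, with a difference of -0.08 ± 0.17 (limma adjusted p 0.757, 95% interval -0.50 to 0.33) and a same-day difference of -0.20. Without Brg1fl/fl array 1 the estimate was 0.036.

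Rbl2 encodes the pocket protein that is most abundant in resting cells, and both of its probes were dim. The brighter was at -4.55, -4.98 and -4.57 in Brg1d/d, against -4.56, -4.49 and -4.48 in Brg1fl/fl, and its difference was -0.19 ± 0.17 (limma adjusted p 0.464). Brg1d/d array 2 stood lowest and the other 2 Brg1d/d arrays were close to the Brg1fl/fl values, so the same-day difference was -0.47 and the difference without that array -0.053. The dimmer probe was well above background on only 2 Brg1d/d arrays. It was at -6.10, -6.06 and -6.38 in Brg1d/d, against -5.70, -5.79 and -5.86 in Brg1fl/fl, without overlap, and differed by -0.40 ± 0.16 (limma adjusted p 0.148, same-day difference -0.27). With quantile scaling this estimate was -0.86.

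Among the activators, E2f1, whose product drives entry into S phase and can also promote apoptosis, was the only member with higher values on every Brg1d/d array. The brighter probe was at 0.84, 0.50 and 0.51 in Brg1d/d, against 0.11, 0.14 and -0.16 in Brg1fl/fl. The dimmer was at -0.56, -0.70 and -0.81 in Brg1d/d, against -1.10, -1.03 and -1.33 in Brg1fl/fl. On both probes the lowest Brg1d/d value lay above the highest Brg1fl/fl value. The brighter differed by 0.58 ± 0.18, or 1.5-fold (limma adjusted p 0.0843, 95% interval 0.16 to 1.01), and the dimmer by 0.47 ± 0.16 (limma adjusted p 0.112, 95% interval 0.08 to 0.85).

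These E2f1 estimates changed little with the arrays used. Same-day differences were 0.47 and 0.45, and leaving out each array in turn gave 0.47 to 0.64 for the brighter probe and 0.38 to 0.53 for the dimmer. Neither passed in any of these, with limma adjusted p of 0.0771 to 0.229 and 0.113 to 0.281. The dimmer probe was also printed at 10 spots, whose standard deviation was 0.03 to 0.08 on the log2 scale. The probes lie close together on the chromosome and both match E2f1 by accession, so they are repeat readings of 1 gene and not separate evidence.

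E2f2, an activator with a known part in the maturation of red blood cells, moved the other way. Its single probe was at 0.39, 0.60 and 0.48 in Brg1d/d, against 1.05, 1.15 and 1.13 in Brg1fl/fl. The highest Brg1d/d value stayed 0.45 below the lowest Brg1fl/fl value, which was more than the spread within either genotype. E2f2 fell by 0.61 ± 0.14 on the log2 scale, or 1.53-fold (limma adjusted p 0.0480, 95% interval -0.96 to -0.27), with a same-day difference of -0.50. The size of the estimate was stable, at -0.67 to -0.56 with each array left out in turn. The call was not, since the adjusted p was 0.151 without Brg1d/d array 1, 0.171 without Brg1d/d array 3, 0.181 without Brg1fl/fl array 2 and 0.110 without Brg1fl/fl array 3. It was 0.0657 with median scaling and 0.503 when scan day was a block, within a range of 0.0284 to 0.503 over all alternatives.

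Markers of primitive erythroid cells were read beside E2f2. Of 8 such genes, 0 passed by limma, 1 had an unadjusted p under 0.05, and all 8 were lower in Brg1fl/fl array 1 than in the other Brg1fl/fl arrays. Their summed levels, as multiples of the array's 75th percentile, were 78.7, 65.0 and 74.8 in Brg1d/d, against 70.5, 254 and 282 in Brg1fl/fl. E2f2 was also lowest in Brg1fl/fl array 1 among the Brg1fl/fl arrays, by 0.10 or less, and its difference without that array was -0.64 (limma adjusted p 0.0450). The part of erythroid cells in the E2f2 values was not tested.

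The genes most like E2f2 across the 6 arrays, by the root mean square difference of centred log2 values, were Ugcg at 0.0366, Klhl42 at 0.0380 and Ica1 at 0.0404, among 22794 probes well above background on all arrays. Their differences were -0.57, -0.60 and -0.57, with limma adjusted p of 0.0603, 0.0547 and 0.0624. Likeness over 6 arrays in 2 groups rests largely on the genotype difference itself.

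Within each array, the brighter E2f1 probe minus the E2f2 probe was 0.45, -0.10 and 0.02 in Brg1d/d, against -0.93, -1.0 and -1.29 in Brg1fl/fl. The mean of this contrast differed by 1.20 between the genotypes, and by 0.97 on the shared day. Scaling between arrays cancels in it. The contrast was chosen after both differences were known and is given with no test.

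E2f3, the third activator, had 3 kept probes that did not share a sign. The brightest was at 2.84, 3.42 and 2.75 in Brg1d/d, against 3.76, 3.58 and 3.47 in Brg1fl/fl. It differed by -0.60 ± 0.22 (limma adjusted p 0.127, 95% interval -1.14 to -0.07), with a same-day difference of -0.18. The genotypes did not overlap, but Brg1d/d array 2 was only 0.05 below the lowest Brg1fl/fl value. Without Brg1d/d array 2 the difference was -0.81 and the adjusted p 0.0350, within a range of 0.0350 to 0.838 over all alternatives.

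The second E2f3 probe was at -0.49, -0.81 and -0.76 in Brg1d/d, against -0.89, -0.86 and -0.80 in Brg1fl/fl. The dimmest kept one was at -1.65, -1.88 and -1.76 in Brg1d/d, against -1.76, -2.32 and -2.02 in Brg1fl/fl. They differed by 0.16 ± 0.16 (limma adjusted p 0.491) and 0.27 ± 0.19 (limma adjusted p 0.355), and the genotypes overlapped on both. The second probe's difference was 0.064 without Brg1d/d array 1, and that of the dimmest was 0.13 without Brg1fl/fl array 2 and 0.41 without Brg1fl/fl array 1. Of the 5 genes with more than 1 kept probe, E2f3 was the only one whose probes gave both signs.

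Within each array, the brightest minus the second E2f3 probe was 3.32, 4.23 and 3.51 in Brg1d/d, against 4.65, 4.44 and 4.27 in Brg1fl/fl. The mean of this contrast differed by -0.77 between the genotypes, but by only -0.22 on the shared day. Against the dimmest kept probe the contrast differed by -0.88, and on the shared day by -0.34. The unequal change between these E2f3 probes was thus carried mainly by Brg1d/d arrays 1 and 3. The part of scan day and labelling in it was not tested. The brightest probe was matched to E2f3 by symbol, the second and the dimmest kept probe by accession. Whether all of them read the same transcript was not tested. Another E2f3 probe was well above background on 0 arrays.

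Of the repressors, E2f4, the most abundant E2F in many cell types, had the largest estimate in the family and the widest interval. Its single probe was at -0.89, -2.21 and -0.61 in Brg1d/d, against -2.0, -1.81 and -1.88 in Brg1fl/fl. Brg1d/d arrays 1 and 3 were above all Brg1fl/fl values, and Brg1d/d array 2 was below all of them. The difference was 0.66 ± 0.41 (limma adjusted p 0.2995, 95% interval -0.32 to 1.65). The same-day difference was -0.31, of the opposite sign, and without Brg1d/d array 2 the difference was 1.15 with an adjusted p of 0.0210, within a range of 0.0210 to 0.684 over all alternatives. Without Brg1d/d array 3 the difference was 0.35. The arrays with high E2f4 were those with the low spike-in signal and a scan day of their own, and the part of these in the E2f4 values was not tested. Of the bases of this probe 20.0% were G or C, the lowest share among the 15 kept probes.

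E2f5, the other repressor that binds pocket proteins, had 2 kept probes. The brighter was at 2.36, 1.92 and 2.23 in Brg1d/d, against 2.32, 2.06 and 2.18 in Brg1fl/fl, and differed by -0.02 ± 0.18 (limma adjusted p 0.953, 95% interval -0.45 to 0.41). The dimmer was at 0.91, 0.79 and 1.16 in Brg1d/d, against 1.29, 1.21 and 1.11 in Brg1fl/fl, and differed by -0.25 ± 0.16 (limma adjusted p 0.326, 95% interval -0.64 to 0.15). The genotypes overlapped on both, and on each Brg1d/d array 2 had the lowest value of the 6 arrays, with same-day differences of -0.27 and -0.41. Without that array the brighter probe differed by 0.11. A further E2f5 probe was well above background on 0 arrays.

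E2f6, the repressor that works without pocket proteins, had a bright and a dim probe. The bright one was at 3.14, 3.48 and 3.30 in Brg1d/d, against 3.97, 3.65 and 3.50 in Brg1fl/fl. The genotypes did not overlap, although the highest Brg1d/d and the lowest Brg1fl/fl value were only 0.02 apart. It differed by -0.40 ± 0.19 (limma adjusted p 0.195, 95% interval -0.85 to 0.05), with a same-day difference of -0.23. The dim probe was at -3.78, -3.42 and -4.39 in Brg1d/d, against -3.17, -3.24 and -3.76 in Brg1fl/fl, with overlap, and differed by -0.48 ± 0.30 (limma adjusted p 0.301, same-day difference -0.04). This estimate rested on single arrays, at -0.21 without Brg1d/d array 3 and -0.70 without Brg1d/d array 2.

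**Figure D2:**
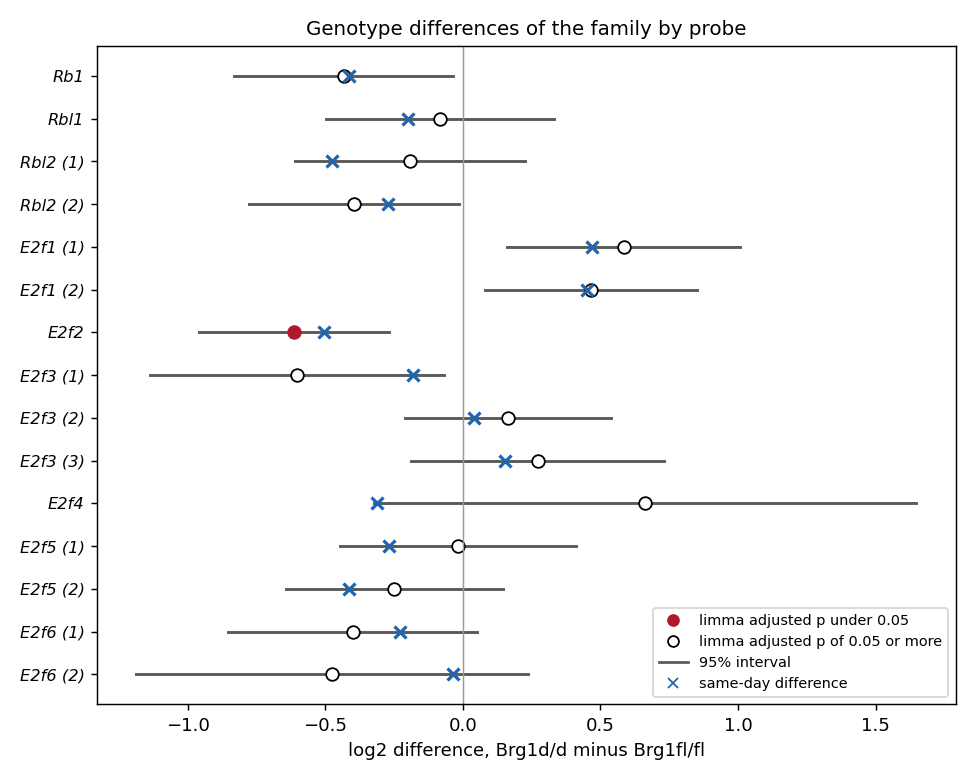
Difference of each kept probe, Brg1d/d minus Brg1fl/fl on the log2 scale, as circles with 95% intervals; a filled red circle marks a limma adjusted p under 0.05, and blue crosses are same-day differences with no interval. E2f2 at -0.61 is the only filled circle, and E2f4 is the only probe whose cross, at -0.31, lies on the other side of 0 from its circle, at 0.66.

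The same-day difference had the sign of the fitted one for 14 of the 15 probes, E2f4 being the exception. With Brg1d/d array 2 left out, 3 of the 15 probes passed (E2f2 and the brightest E2f3 probe lower, E2f4 higher), against 17.2% of all kept probes. A gain of calls without that array was therefore common to the whole array set.

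**Figure D3:**
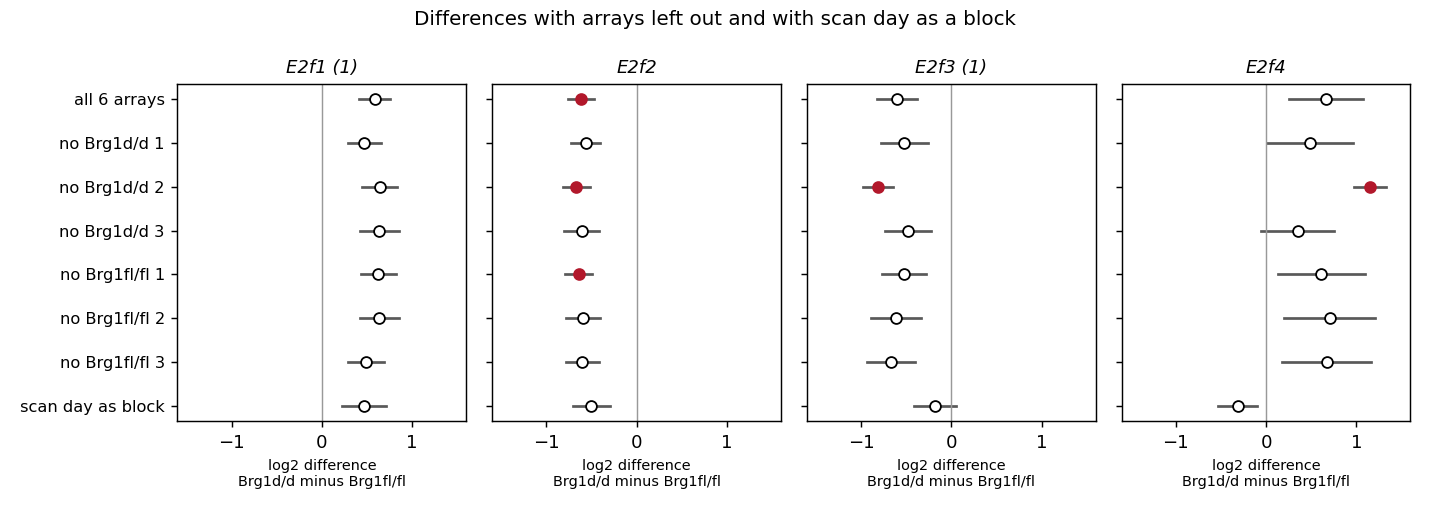
Difference of the brighter E2f1 probe, the E2f2 probe, the brightest E2f3 probe and the E2f4 probe, Brg1d/d minus Brg1fl/fl on the log2 scale, with all 6 arrays, with each array left out and with scan day as a block; bars are standard errors and filled red circles have a limma adjusted p under 0.05. E2f1 and E2f2 stay near their estimates of 0.58 and -0.61, whereas E2f4 is 1.15 without Brg1d/d array 2. With scan day as a block E2f4 is at -0.31, which is its same-day difference.

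Genes around the family were read from 6 lists of 76 genes, each gene through its kept probe with the highest mean, and 75 were measured. Of these 5 rose, 1 fell and 69 did not pass, so that 8.0% passed, against 10.6% of the 15031 named genes with a kept probe (5.26% higher and 5.31% lower). The median size of the difference was 0.20 in the lists, against 0.38 over all named genes, and the median signed difference was -0.03, against 0.07. The calls lay mostly among the inhibitors upstream of the pocket proteins.

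Of 7 inhibitors of cyclin-dependent kinases, whose action keeps pocket proteins bound to E2F, 4 rose and 3 did not pass, with a median difference of 1.11. Cdkn2b, an inhibitor of CDK4 and CDK6, was at -0.67, -0.55 and -0.52 in Brg1d/d, against -3.99, -3.64 and -3.56 in Brg1fl/fl. It rose by 3.15 (limma adjusted p 0.0011, same-day difference 3.18). Cdkn2a rose by 2.45 (0.0407), Cdkn1a by 1.93 (0.0049) and Cdkn2c by 1.11 (0.0460), by limma adjusted p. Cdkn2b and Cdkn1a passed with each array left out in turn. Cdkn2a had an adjusted p of 0.0550 or more without any 1 array other than Brg1fl/fl array 1. For Cdkn2c it was 0.0643 or more without any Brg1d/d array and 0.143 without Brg1fl/fl array 2. Cdkn1b, Cdkn1c and Cdkn2d did not pass, at -0.56, -0.75 and -0.24 (limma adjusted p 0.227, 0.0749 and 0.3997). Of these, only Cdkn1c was lower in Brg1d/d without overlap, with a same-day difference of -0.37. Summed over the 7 inhibitors, levels were 19.45, 29.44 and 22.68 in Brg1d/d, against 35.04, 35.72 and 33.5 in Brg1fl/fl. The sum was thus lower in Brg1d/d without overlap, although it adds probes of unequal brightness.

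Of 10 upstream cyclins and kinases, which phosphorylate pocket proteins or switch on the kinases that do, 0 passed by limma and 1 had an unadjusted p under 0.05, with a median difference of -0.17. The smallest p belonged to Ccne2, a cyclin E gene, at -0.86 ± 0.28 (limma adjusted p 0.0986). Another list of 12 genes held E2F partners and the MuvB core, the protein complex that joins pocket proteins on cell cycle promoters. It also held Mybl2, Foxm1 and Hdac1, which are not MuvB core genes, and E2f7 and E2f8, which are outside the family as read here. Of the 12 genes, 0 passed by limma and 2 had an unadjusted p under 0.05. Lin37, a MuvB subunit that the array names 1810054G18Rik, had the smallest p, at 0.92 ± 0.24 (limma adjusted p 0.0597). Without Brg1fl/fl array 1 its adjusted p was 0.0312.

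Downstream, 1 of 24 E2F targets of S phase passed, with a median of -0.06. Rrm2, a subunit of ribonucleotide reductase, was at 3.01, 3.02 and 3.04 in Brg1d/d, against 3.75, 3.76 and 3.56 in Brg1fl/fl, without overlap. It fell by 0.66 ± 0.14 (limma adjusted p 0.0391, same-day difference -0.66). The call was lost without Brg1d/d array 1 (0.124), Brg1d/d array 3 (0.145), Brg1fl/fl array 2 (0.162) or Brg1fl/fl array 3 (0.0713). Summed over the list, the levels were 682, 663 and 628 times the 75th percentile in Brg1d/d, against 735, 667 and 666 in Brg1fl/fl, and the genotypes overlapped.

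Of 18 targets of the DREAM complex expressed in G2 and M phase, 0 passed by limma and 2 had an unadjusted p under 0.05, with a median of -0.06. Bub1, a spindle checkpoint kinase, had the smallest p, at -0.66 ± 0.17 (limma adjusted p 0.0635), and an adjusted p of 0.0358 without Brg1d/d array 2. Of 4 measured germ line genes known to be silenced by E2F6, 1 rose. Slc25a31, Tuba3a and Smc1b did not pass, at 1.01, 0.19 and -0.12 (limma adjusted p 0.197, 0.4256 and 0.7122). Stag3, a meiotic cohesin subunit, was at -0.49, -0.65 and -0.38 in Brg1d/d, against -1.59, -1.92 and -2.08 in Brg1fl/fl. It rose by 1.36 ± 0.19 (limma adjusted p 0.0121, same-day difference 1.21), with an adjusted p of 0.0624, 0.0634 and 0.0668 without Brg1d/d array 1, Brg1d/d array 3 and Brg1fl/fl array 2.

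**Figure D4:**
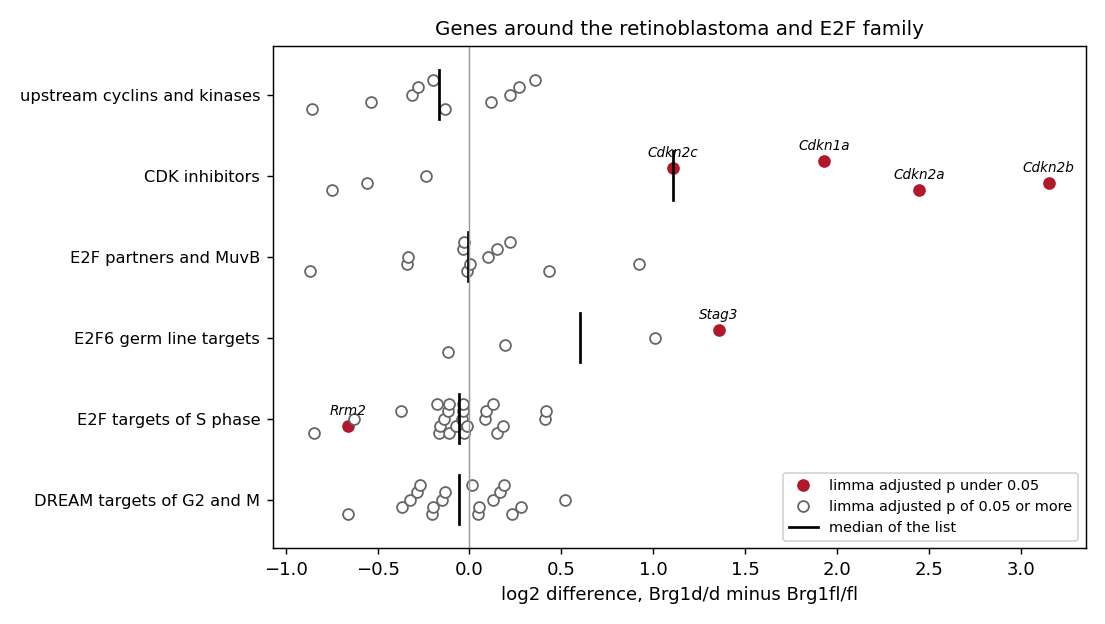
Difference of each measured gene in the 6 lists around the family, Brg1d/d minus Brg1fl/fl on the log2 scale, 1 circle per gene; filled red circles have a limma adjusted p under 0.05 and vertical bars are list medians. The inhibitors that passed, Cdkn2b, Cdkn2a, Cdkn1a and Cdkn2c, lie at 1.11 to 3.15, and the other inhibitors lie below 0. The medians of the S phase and the G2 and M lists lie at -0.06.

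Markers of cell types in and around the embryo moved with genotype as well. Their summed levels add probes of unequal brightness, so the sums with a large share from 1 gene are also given without it. The marker genes named here were chosen after their values were seen. Of 7 measured trophoblast markers 5 rose, and their summed levels were 36.9, 35.8 and 28.2 in Brg1d/d, against 22.7, 15.7 and 18.7 in Brg1fl/fl. Without Cdx2, which did not pass, the sums were 19.8, 16.7 and 14.6 in Brg1d/d, against 4.29, 5.04 and 6.88 in Brg1fl/fl.

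Of 10 markers of the embryo proper, all measured above background on every array, 5 fell, 1 rose (Sox1) and 4 did not pass. Summed levels were 16.2, 15.8 and 20.4 in Brg1d/d, against 111.5, 69.9 and 78.2 in Brg1fl/fl. Most of the Brg1fl/fl sums came from Myl7, a myosin light chain of the heart, and without it the sums were 10.7, 10.7 and 12.8 in Brg1d/d, against 39.5, 19.3 and 19.6 in Brg1fl/fl. Nkx2-5, a heart transcription factor, differed by 0.01 (limma adjusted p 0.966).

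Of 7 measured decidual and uterine markers 4 fell and 1 rose, and these went different ways by kind. Prl8a2, the decidual member of the prolactin family, rose by 4.47 (limma adjusted p 0.0459). It was well above background on only 4 arrays, and its Brg1fl/fl values were low and spread widely, at -7.96, -6.92 and -3.83. The limma adjusted p was up to 0.162 with an array left out. The 4 that fell were Lum, Dcn and Col6a3, genes of extracellular matrix, and Des, a gene of muscle, which other tissues express too. Summed levels were 1.01 to 1.31 in Brg1d/d and 3.59 to 11.2 in Brg1fl/fl, and without Lum 0.831 to 1.11 in Brg1d/d and 1.68 to 1.78 in Brg1fl/fl. Of 4 leukocyte markers 1 fell, with summed levels of 0.394 to 0.526 in Brg1d/d and 0.223 to 0.541 in Brg1fl/fl. Without Lyz2 the leukocyte sums were 0.1555 to 0.240 in Brg1d/d and 0.168 to 0.183 in Brg1fl/fl.

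Of 8 yolk sac markers 0 passed by limma and 1 had an unadjusted p under 0.05. Summed levels were 537, 446 and 549 in Brg1d/d, against 115.5, 484 and 517 in Brg1fl/fl. Without Apoe the sums were 339, 299 and 352 in Brg1d/d, against 88.8, 381 and 396 in Brg1fl/fl. Brg1fl/fl array 1 stood apart, since all 8 yolk sac and all 8 erythroid markers were lower in it than in the other Brg1fl/fl arrays, and all 10 markers of the embryo proper were higher. Gcm1 of trophoblast, Pgr of the decidua and Ptprc and Itgam of leukocytes had no kept probe. The part of these shifts in the values of E2f2 and the other members was not tested, and the differences of E2f2 and E2f1 without Brg1fl/fl array 1 were -0.64 and, for the brighter E2f1 probe, 0.62.

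Promoter sequence was compared with the letters of the E2F motif, TTTNNCGC, read on both strands in RefSeq windows of GRCm38.p6 that reach from 250 bases before to 50 bases after a gene's start. The motif was found in 5.17% of 32851 windows and in 5.93% of 27025 genes. The table held 8 windows for 6 of the 9 family genes, and 3 windows held the motif, those of Rbl1, E2f2 and E2f3. Windows of Rbl2 and E2f6 did not hold these letters. The only E2f1 window in the table begins from a start 466 bases inside the annotated gene and lies wholly within that gene. It did not hold the letters either, and it is not read here as the main E2f1 promoter. Among the lists, 10 of 19 S phase genes with a window held it, against 1 of 16 G2 and M genes and 1 of 6 inhibitors. It was also held by 3 of 7 upstream cyclins and kinases, 3 of 9 genes of the E2F partner and MuvB list, and 1 of 5 E2F6 germ line targets.

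The windows of E2f2 and Rbl1 are printed because each holds the motif at 2 places, marked in capitals. In E2f2 the matches begin at bases 5 and 40 after the start, and in Rbl1 at -18 and -8 before it.
E2f2, chr4:136172024-136172323, plus strand: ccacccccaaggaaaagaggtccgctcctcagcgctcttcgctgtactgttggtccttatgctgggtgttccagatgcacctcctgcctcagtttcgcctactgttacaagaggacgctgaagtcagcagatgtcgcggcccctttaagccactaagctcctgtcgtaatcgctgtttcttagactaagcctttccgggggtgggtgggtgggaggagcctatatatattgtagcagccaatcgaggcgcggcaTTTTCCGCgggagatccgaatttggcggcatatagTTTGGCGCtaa
Rbl1, chr2:157204485-157204784, minus strand: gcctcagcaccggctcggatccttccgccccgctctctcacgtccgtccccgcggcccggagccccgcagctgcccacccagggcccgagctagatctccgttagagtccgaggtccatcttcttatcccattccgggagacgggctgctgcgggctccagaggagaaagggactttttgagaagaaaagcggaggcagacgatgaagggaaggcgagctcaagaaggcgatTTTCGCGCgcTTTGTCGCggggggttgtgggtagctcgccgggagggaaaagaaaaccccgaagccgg

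Among the members with the motif, E2f2 was lower in Brg1d/d at -0.61, Rbl1 differed by -0.08 and the E2f3 probes by -0.60 to 0.27. Rbl2 and E2f6, with no match, differed by -0.19 and -0.40 and by -0.40 and -0.48. A motif match here is a description of letters in a window and not a measured site.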

How the data were processed

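Agilent Feature Extraction 9.5 made the scanner files, per the submitters' processing notes (9.5.3.1 per the file headers). From 250 ng of total RNA per sample, Cy3-labelled cRNA was made, per the labels. The deposited intensity values are linear signals from which the authors' software subtracted background and removed spatial trends, with no scaling between arrays, per the file headers. Other deposited columns hold raw mean and background intensity and flags (unit: other) for outliers, saturation and detection. At 100% of spots the deposited series table held the same intensity values, to a relative difference of 0.0001.

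Here, control and outlier spots were dropped, log2 signals were computed from the deposited intensity values, each array's 75th percentile over 43379 spots was subtracted, and spots of a probe were averaged. A probe had to be well above background (at 0.5 or more of its spots) on all 3 arrays of at least 1 genotype. That percentile was 1627 and 1582 units on Brg1d/d arrays 1 and 3, 970 on Brg1d/d array 2 and 957.5 to 1010 on the Brg1fl/fl arrays. The number of arrays limits precision.

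Genotypes were compared with lmFit and eBayes of limma 3.58.1 (R 4.3.3), two-sided, over all 27854 kept probes. Files were read with Python 3.11.15, and plots drawn with matplotlib 3.10.9. Of the 18 member probes 13 matched the RefSeq table by accession. Over all probes, 23082 were named by accession, 6582 by symbol and 3073 by synonym, and 8437 kept the array's name.

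The members, lists, contrasts and rules were chosen with earlier results of these data known. The text names every member probe, the brightest Smarca4 probe, per list up to 4 genes that passed with the largest difference or else the one with the smallest p, and the 3 genes nearest to each member probe that passed. The inhibitors and the E2F6 germ line targets that did not pass are also named, chosen after their values were seen. Alternatives were quantile and median scaling, normexp with an offset of 50, the series table, no filter, a filter on all arrays, trend with robust eBayes, slide, scan day, spike-in split and replicate number as blocks, and each array left out. Replicate numbers recur in both genotypes, and the check of pairing is given with the alternatives.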

Additional observations from a re-analysis of the deposited data

How the results depend on the processing

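Over 17 alternatives, 6 of them leaving out an array, 248 of 254 differences of kept family probes had the sign of the reported value. The estimates were unchanged with the series table, no filter, the filter on all arrays, and trend with robust eBayes. They were also unchanged with slide or replicate number as a block. Signs kept under these settings are therefore no check of the sign. The 6 that turned were those of Rbl1 without Brg1fl/fl array 1 (-0.17 to 0.036 over left-out arrays), E2f4 with scan day or the spike-in split as a block (-0.31 each), and the brighter E2f5 probe with normexp (0.0092) and without Brg1d/d array 2 or Brg1fl/fl array 1 (-0.12 to 0.11 over left-out arrays), all of them differences that passed neither way. The 1 family probe that passed became 0 with median scaling, no filter, scan day, slide, the spike-in split or the replicate number as a block, and 0 to 3 with an array left out. The 6 list genes that passed became 3 with no filter, 10 with normexp, 11 with trend and robust eBayes, 3 with the replicate block, 0 with scan day and 1 with the spike-in split as a block, and 2 to 8 with an array left out. Scan day and the spike-in split as blocks gave the same estimate for each family probe. Both leave Brg1d/d array 2 against the Brg1fl/fl arrays, which is the same-day difference. Smarca4 stayed lower, at -2.69 with the replicate block (limma adjusted p 0.0529), -2.09 with scan day (0.282), -2.09 with the spike-in split (0.131) and -3.00 to -2.42 with an array left out. Deviations of same-numbered arrays from their genotype means correlated at -0.13, 0.08 and 0.09, so no pairing was seen. With 3 arrays per genotype, some of which stood apart, these values cannot exclude one. With the replicate block E2f2 had a limma adjusted p of 0.111. The causes of these changes were not tested. With quantile scaling the dim Rbl2 probes moved most in the family, to -0.39 and -0.86.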
